A study of Mus musculus with 9 samples.

Results

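The AP-1 and immediate early genes described here are Fos, Fosb, Fosl1, Fosl2, Jun, Junb, Jund, Egr1, Egr2 and Zfp36, taken by symbol from a table of estimated RNA-seq counts, which holds each of the 10 on 1 row among 55492. All 10 passed a filter on low counts that 12813 rows passed. Poly(A) RNA came from a line of mouse mammary adenocarcinoma cells that the labels spell D2.0R and D2.OR, loaded with CellTrace Far Red (CTFR), a dye diluted at each division, and kept for 1 week in DMEM with 2% FBS before sorting. No genetic change or drug is named for any library, and the labels describe the cells that keep the dye as quiescent and those that lose it as proliferating. CTFR-positive, CTFR-negative and bulk samples are named, yet the labels tie none of the 9 libraries to one of these 3 kinds, so libraries are called by their title numbers, 1 to 9, and no sorted fraction is compared. Where values are set out in the runs 1-3, 4-6 and 7-9 or by place within a run, this is an order of title numbers only, with no known link to a fraction, culture or day. Nothing in the labels says whether libraries stem from separate cultures, so a difference between libraries may be technical.

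Immediate early genes are transcribed within minutes of a stimulus such as serum, growth factors or cell stress, from factors already present in the cell, and most of their mRNAs are short-lived. AP-1 is a dimer of basic leucine zipper proteins. JUN proteins pair with each other or with FOS proteins, whereas FOS proteins need a JUN partner to bind DNA. In mammary tumour cells AP-1 is known for its links to growth factor signalling, invasion and matrix proteases.

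Some control sequences these genes are known for are shown in stretches upstream of RefSeq transcription starts (GRCm38.p6, 5′ to 3′ on the gene's strand). The motifs named here are in capitals. Capitals mark the cAMP response element core TGACG on either strand and the TATA box TATAAA in Fos, TGACG and the EGR site GCGNGGGCG in Fosb, TGACATCA in Jun, the CArG box (the site of serum response factor) in Zfp36, and the CArG box and the TGACG core, here read on the other strand, in Egr2.
Fos, chr12:85473790-85473889, + strand: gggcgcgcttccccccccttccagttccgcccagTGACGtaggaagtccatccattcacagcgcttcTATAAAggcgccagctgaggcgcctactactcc
Fosb, chr7:19310052-19310145, - strand: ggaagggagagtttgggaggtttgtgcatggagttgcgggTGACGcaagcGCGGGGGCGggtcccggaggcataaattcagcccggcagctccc
Jun, chr4:95052223-95052322, - strand: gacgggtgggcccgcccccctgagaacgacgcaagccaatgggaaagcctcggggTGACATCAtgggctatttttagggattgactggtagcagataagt
Zfp36, chr7:28379267-28379296, - strand: ccaggccgccCCATAAAAGGagaaagctcc
Egr2, chr10:67537769-67537868, + strand: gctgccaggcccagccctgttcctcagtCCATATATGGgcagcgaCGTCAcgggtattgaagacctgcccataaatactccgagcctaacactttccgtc
RefSeq's promoter table holds 8 of the 10 genes, without Fosl1 and Egr1, and some of them with several starts. In the 250 bases upstream of a start, a CArG box stood in 2 of these 8 (Zfp36 and Egr2) and in 1.62% of 27025 genes. Bases further upstream were not searched. A gene without a match here, such as Fos for the CArG box, may hold the motif there. The TGACG core stood in 4 of the 8 (Fos, Fosb, Junb and Egr2) and in 19.8% of all, and TGACATCA in Jun and in 3.41% of all. The EGR site was found in Fosb, Fosl2 and Zfp36 and in 5.33% of all, and the TATA letters, searched on the gene's strand only, in Fos and in 8.94% of all. The full cAMP response element TGACGTCA and the AP-1 site TGANTCA were in none of the 8 windows, and in 1.77% and 7.82% of all genes. All motifs but the TATA letters were searched on both strands, and the TGACG core is part of TGACGTCA. The Fos, Jun and Egr2 stretches overlap no annotated exon of their gene, while the Zfp36 stretch, of 30 bases, lies at an annotated exon of another Zfp36 transcript. Such matches describe the letters and are not evidence of a bound factor.

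The 3′ UTR of many immediate early mRNAs holds AU-rich letters, and the protein of Zfp36, tristetraprolin, binds such letters and speeds mRNA decay. Stretches with the letters TATTTAT (capitals, gene strand) are shown for Zfp36 itself, which had 3 sites, and for Fos, which had 2, in the longest annotated 3′ UTR (GENCODE M21, GRCm38).
Zfp36, chr7:28376962-28376991, - strand: gggcccttTATTTATgacgacttTATTTAT
Fos, chr12:85477114-85477143, + strand: TATTTATtaagatggattctcagatattta
Of the 10 genes 7 held TATTTAT, and so did 30.8% of 11507 tested genes with an annotated 3′ UTR. The median 3′ UTR was 1008 bases long for the 10 and 1214 for all. Junb, Egr1 and Egr2 had no match. Longer UTRs hold such letters more often. The UTR of Zfp36 had 774 bases, and 19.9% of genes with a UTR of similar length held a site. For Fos, with 815 bases, that share was 21.1%, and for Fosl2, with 3 sites in 4653 bases, it was 63.0%.

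The shallowest library, 9, held 18732737 estimated counts and the deepest, 7, held 41243036, so that 1 CPM (a count scaled to library size, here with TMM factors) rested on 18.3 to 40.4 counts. A gene is called variable when a chi-square test against counting noise gave a Benjamini-Hochberg adjusted p under 0.05 over all tested genes and its highest and lowest library differed at least 2-fold. Intervals are exact 95% conditional binomial intervals, which cover counting error only. The 5 NK cell markers had 0 counts in all libraries, and 4 of 5 leukocyte markers stayed under 1 CPM, with Ptprc (CD45) at 0.109 or less, while Cd68 was variable at 2.74 to 10.95 CPM. Of 5 endothelial markers 4 stayed under 1 CPM, with Cdh5 at 0 counts, while Egfl7 was at 6.79 to 11.98 CPM. Vim, a mesenchymal gene, stood at 3495 to 5849 CPM, and the keratin genes Krt8 and Krt18 at 146 to 662 and 38.0 to 156. The epithelial adhesion genes differed, with Cdh1 at 5.46 to 13.0 CPM and Epcam at 0.219 or less. Krt14, a further epithelial marker, did not pass 1.31 CPM. In bulk RNA fewer cells with a transcript and less of it per cell cannot be told apart.

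Of the 10 genes 5 were variable: Zfp36, Fosb, Fos, Fosl1 and Egr2. Among all tested genes 28.0% were, and the test alone passed for all 10 and for 94.1% of all genes. The median range was 0.89 on the log2 scale for the 7 AP-1 genes and 0.69 for all tested genes. Library 7 set much of this. It was the lowest library for 6 of the 10 (Fos, Fosb, Fosl2, Egr1, Egr2 and Zfp36), and without it 2 of the 10 were variable, against 25.9% of all genes. The share of all tested genes lowest in library 7 was not counted, so the 6 cannot be called particular to these genes. Library 7 was also the deepest. The part of depth was not tested.

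**Figure D1:**
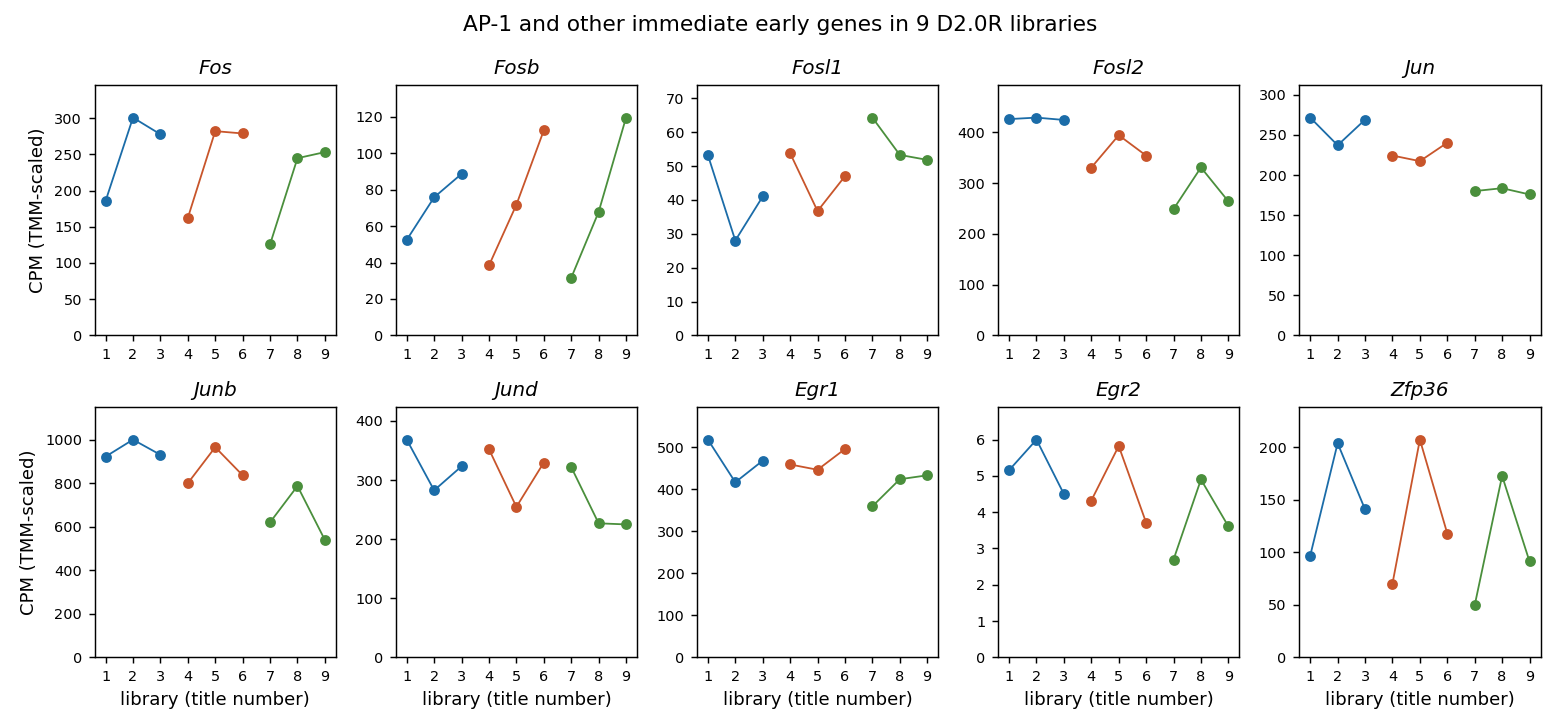
CPM of each of the 10 genes (vertical axes start at 0) in the 9 libraries by title number, 1 panel a gene, with lines joining the libraries of a run of 3 title numbers for the eye only. Fos and Fosb are lowest in libraries 1, 4 and 7, and Zfp36 is highest in libraries 2, 5 and 8.

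**Figure D2:**
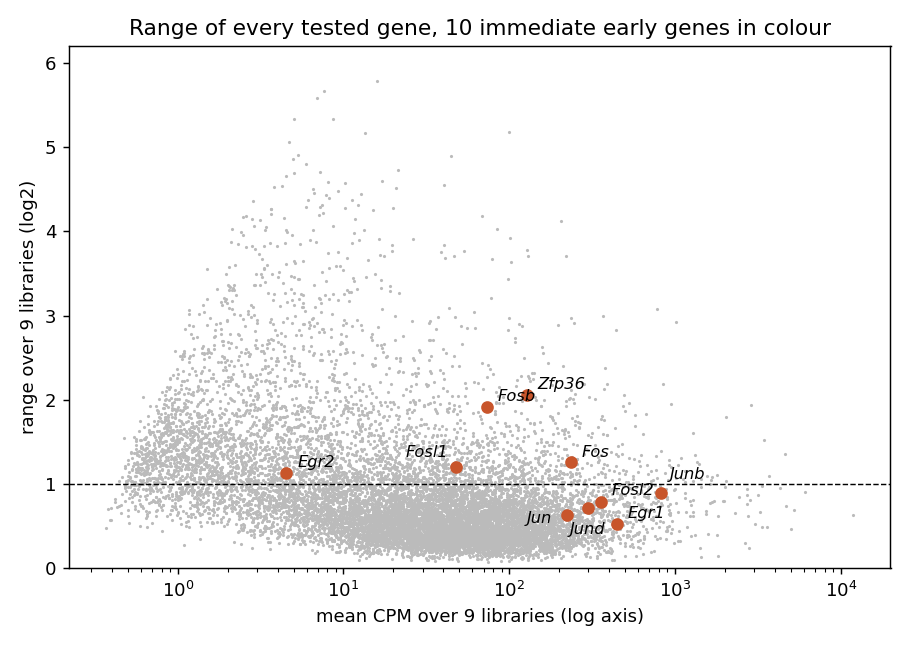
Range between the highest and lowest library (log2) against mean CPM (log axis) for every tested gene in grey, with the 10 genes in colour and the 2-fold line dashed. Zfp36 and Fosb lie at 2.06 and 1.92, and Fosl2, Jun, Junb, Jund and Egr1 below the line.

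Fos (ENSMUSG00000021250, chromosome 12, 85473890 to 85477273, GRCm38, protein-coding) encodes the founding FOS protein. It stood at 186, 301 and 278 CPM in libraries 1 to 3, at 162, 282 and 279 CPM in libraries 4 to 6, and at 126, 245 and 253 CPM in libraries 7 to 9. Libraries 1, 4 and 7, the first numbers of each run, lay all below the other 6, and those 6 spanned 245 to 301 CPM. The ratio of library 2 to library 7 was 2.39 (interval 2.31 to 2.47). The range was 1.26 on the log2 scale and 0.90, under 2-fold, without library 7. Within runs, Fos in the highest library was 1.62 times the lowest in libraries 1-3 (interval 1.57 to 1.67), 1.74 times in 4-6 (1.68 to 1.80) and 2.01 times in 7-9 (1.93 to 2.09).

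Fosb (ENSMUSG00000003545, chromosome 7, 19302696 to 19310051) encodes a second FOS protein, of which a short form also exists that gene counts do not separate. Its levels were 52.4, 75.8 and 88.6 CPM in libraries 1 to 3, 38.4, 71.7 and 112.5 CPM in libraries 4 to 6, and 31.6, 67.8 and 119.5 CPM in libraries 7 to 9. Every run thus had the same order, with the first number lowest and the third highest. The first numbers spanned 31.6 to 52.4 CPM, the second 67.8 to 75.8 and the third 88.6 to 119.5, with no overlap. Library 9 was 3.78 times library 7 (interval 3.53 to 4.06). Fosb therefore split libraries 2, 5, 8 from 3, 6, 9 where Fos did not: Fos in library 6 was 0.99 times that in library 5 (interval 0.96 to 1.02) and in library 9 it was 1.03 times that in library 8 (1.00 to 1.07), although in library 3 it was 0.92 times that in library 2 (0.90 to 0.95). Fos and Fosb were the only members with libraries 1, 4 and 7 all below the rest, which held for 4.39% of all tested genes. Libraries 3, 6 and 9 were all above the rest for Fosb and for 5.15% of all.

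Zfp36 (ENSMUSG00000044786, chromosome 7, 28376784 to 28380253) had the widest range of the 10. It stood at 96.9, 203.8 and 141 CPM in libraries 1 to 3, at 70.3, 207 and 118 CPM in libraries 4 to 6, and at 49.7, 173 and 91.3 CPM in libraries 7 to 9. In every run the second number was highest, the third next and the first lowest, and libraries 2, 5 and 8 lay all above the other 6. That last pattern is common in this table, at 19.0% of tested genes. Library 5 was 4.17 times library 7 (interval 3.96 to 4.39), and the range of 2.06 on the log2 scale was 1.57 without library 7. Within runs the ratio of highest to lowest was 2.10 in libraries 1-3 (2.01 to 2.20), 2.95 in 4-6 (2.81 to 3.10) and 3.47 in 7-9 (3.30 to 3.66).

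Fosl1 (ENSMUSG00000024912, chromosome 19, 5447547 to 5455946), the gene of FRA1, differed from the other FOS genes. Its levels were 53.3, 28.0 and 41.0 CPM in libraries 1 to 3, 53.8, 36.7 and 47.0 CPM in libraries 4 to 6, and 64.3, 53.3 and 51.9 CPM in libraries 7 to 9. It was highest in library 7, where Fos and Fosb were lowest, and lowest in library 2, where Fos was highest. Library 7 was 2.296 times library 2 (interval 2.13 to 2.47). The call rested on each of them, since the range of 1.20 on the log2 scale was 0.81 without library 2 and 0.93 without library 7. Fosl1 and Jund were highest in the first number of every run, as were 15.4% of all tested genes.

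Egr2 (ENSMUSG00000037868, chromosome 10, 67535475 to 67542188), a zinc finger transcription factor gene, was the least abundant. Its lowest level was 2.695 CPM in library 7 (109 counts), its median 4.50 and its highest 5.997 in library 2 (211 counts). The second number was highest in every run, although in libraries 1-3 its lead over library 1 was within counting error (ratio 1.16, interval 0.94 to 1.45). The range of 1.14 on the log2 scale was 0.75 without library 7. In the fixed list of other early genes its relative Egr3 was variable as well, at 1.72 CPM in library 6 and 3.91 CPM in library 8, and Egr4 had 0 counts in all libraries.

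Egr1 (ENSMUSG00000038418, chromosome 18, 34859823 to 34864984), a common readout gene of ERK signalling, varied least among the 10. It ran from 359 CPM in library 7 through a median of 446 to 518 in library 1, a ratio of 1.44 (interval 1.41 to 1.47). Apart from library 7 its levels lay between 416 and 518 CPM. When the scaling was recomputed without library 7, the range on the log2 scale was 0.28 for Egr1 and 0.90 for Fos.

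Among the JUN genes none was variable. Jun (ENSMUSG00000052684, chromosome 4, 95049034 to 95052222) spanned 237 to 272 CPM in libraries 1-3, 217 to 240 in 4-6 and 176 to 184 in 7-9. Junb (ENSMUSG00000052837, chromosome 8, 84974484 to 84978718), whose protein often opposes that of Jun, spanned 923 to 1001 CPM in libraries 1-3, 801 to 966 in 4-6 and 540 to 788 in 7-9. For both, libraries 7 to 9 lay all below the other 6, as for 4.10% of all tested genes. Jund (ENSMUSG00000071076, chromosome 8, 70698949 to 70700616), the JUN gene known for steady expression in resting cells, ran from 225 CPM in library 9 through a median of 322 to 368 in library 1, and was lower in the second than in the first number of every run. Its highest and lowest libraries within a run differed 1.38-fold in libraries 4-6 and 1.43-fold in 7-9. Fosl2 (ENSMUSG00000029135, chromosome 5, 32135801 to 32157842), the gene of FRA2, was nearly even in libraries 1-3 (424 to 429 CPM), all above the rest (248.7 to 394 CPM), as were 3.92% of all genes. Its ratio of highest to lowest library was 1.72 (interval 1.68 to 1.77), against 1.85 for Junb, 1.64 for Jund and 1.55 for Jun. The second number of each run was highest for Fosl2, Junb, Egr2 and Zfp36, and for 28.6% of all tested genes. For Fosl2 in libraries 1-3 that lead was within counting error (ratio of library 2 to library 3 1.01, interval 0.99 to 1.03). None of the 10 had libraries 1, 4 and 7 all above the rest (6.34% of all tested genes), 2, 5 and 8 all below (20.1%), or 3, 6 and 9 all below (3.46%). Nor had any of the 10 libraries 1-3 all below (2.71%), 7-9 all above (3.28%), or 4-6 all above (0.0390%) or all below (0.0312%). Within every run, the first number was lowest for Fos, Fosb and Zfp36 (11.6% of all genes) and the third highest for Fosb (12.1%), while for none of the 10 was the second lowest (29.5%) or the third lowest (11.5%). With libraries scaled by totals alone, 2 members rather than 1 had libraries 1-3 all above the rest and 1 rather than 2 had 7-9 all below. The second number was then highest in every run for 5 members rather than 4. The first number was lowest in every run for 4 rather than 3, by totals alone and by another scaling (RLE size factors).

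Jund, Junb and Fosl1 overlap a gene on the other strand, namely Gm11175 (at most 38.7 CPM), Prdx2 (at most 191 CPM) and Ccdc85b (at most 31.5 CPM). The labels and notes do not state whether strand was used in counting, so reads in the shared bases cannot be told apart. The antisense genes of Jun and Zfp36 (Junos and Gm44710) stayed under 0.57 CPM.

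**Figure D3:**
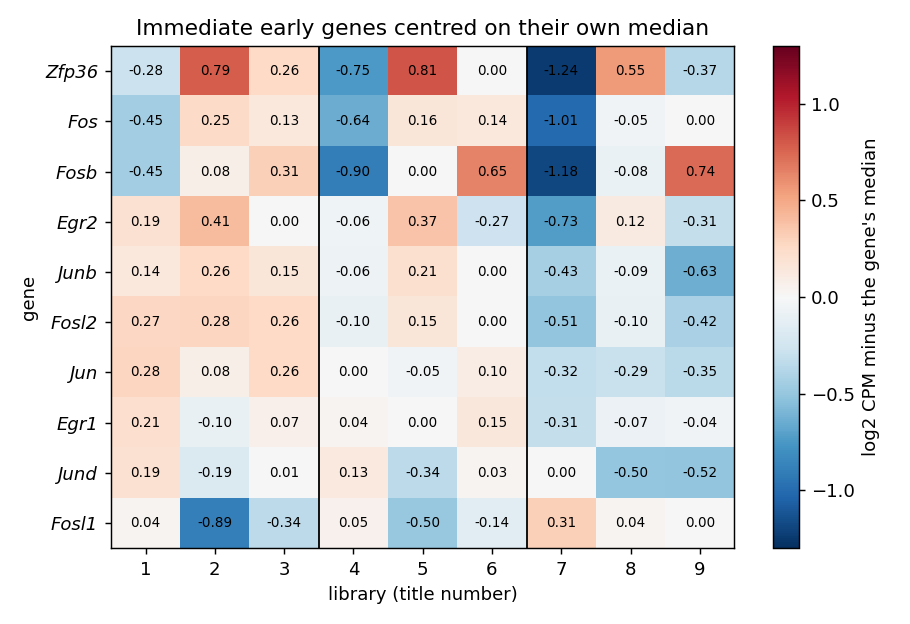
Log2 CPM relative to each gene's median of 9 values, for the 10 genes (rows) and the libraries by title number (columns, black lines between runs of 3). Library 7 is blue for Zfp36 (-1.24), Fosb (-1.18) and Fos (-1.01) and red for Fosl1 (0.31).

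Per length, JUN transcripts outweighed FOS transcripts in every library. On the scale of CPM per kilobase of exon, Junb had a median of 364 (lowest 235, highest 435), Jund 193 (135 to 221), Fos 108 (53.5 to 128), Egr1 99.5 (80.1 to 115), Jun 70.3 (55.1 to 85.2), Fosl2 36.6 (25.7 to 44.3), Zfp36 34.0 (14.3 to 59.7), Fosl1 25.5 (13.8 to 31.6), Fosb 11.5 (5.06 to 19.1) and Egr2 1.32 (0.79 to 1.77). In this order the libraries of Junb and Jund, of Jund and Fos, of Jun and Fosl2 and of Fosb and Egr2 did not overlap, and those of the other neighbours did. With the longest coding transcript as the length the order of the medians was the same and Fosb moved from 11.5 to 19.0, but the libraries of Jund (135 to 221) and Fos (59.7 to 142.7) and those of Jun (55.1 to 85.2) and Fosl2 (38.05 to 65.6) then overlapped. The summed FOS level was 0.216 (library 4) to 0.423 (library 9) times the summed JUN level. It was 0.223 in library 1, 0.216 in library 4 and 0.223 in library 7, below the other 6 libraries, which began at 0.287 in library 3.

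The shares of Fos and Fosl1 in their family spanned wider ranges than any share in the JUN family. Fos held 46.1% (library 7) to 64.5% (library 2) of the summed FOS level, Fosl1 6.96% (library 2) to 27.3% (library 7), Fosb 4.37% (library 7) to 10.7% (library 9) and Fosl2 15.2% (library 9) to 27.9% (library 1). Junb held 52.0% (library 7) to 65.5% (library 5) of the summed JUN level, Jund 23.8% to 37.2% in the same libraries in reverse, and Jun 10.6% to 12.98%. These shares rest on the exon lengths used.

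**Figure D4:**
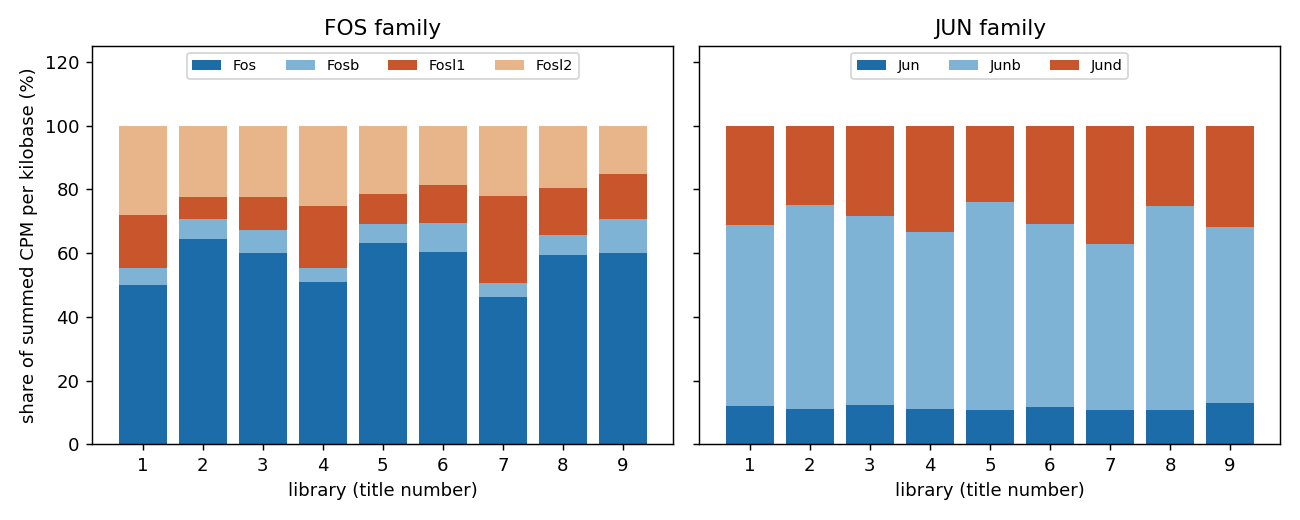
Share of each gene (%) in the summed CPM per kilobase of its family, for FOS genes (left) and JUN genes (right), in the 9 libraries by title number. The Fosl1 share is largest in library 7 (27.3%), and the Jun share stays between 10.6% and 12.98%.

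**Figure D5:**
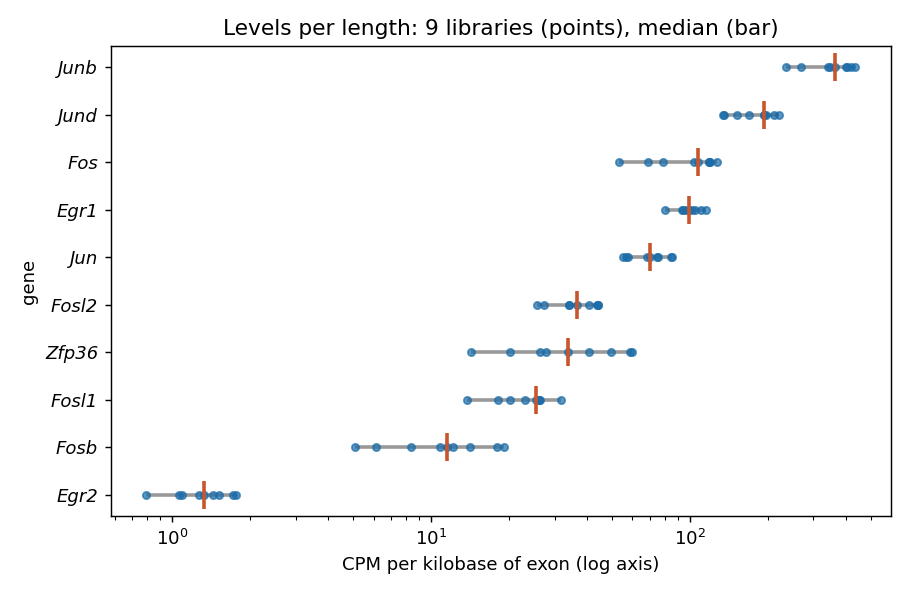
CPM per kilobase of exon (log axis) of the 10 genes, with a point for each of the 9 libraries, a grey line from the lowest to the highest and a bar at the median. Junb lies at a median of 364 and Egr2 at 1.32.

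Patterns nearest to those of the variable members were sought among 9879 genes with a mean of at least 5 CPM, by the root mean square difference of median-centred log2 CPM over the 9 libraries (0 is an identical pattern). The gene nearest to Zfp36 was Nr4a1, an early gene of an orphan nuclear receptor, at 0.15, followed by Grin2d (0.18) and Mir100hg (0.20). Nr4a1 stood at 28.9, 56.7 and 32.7 CPM in libraries 1 to 3, at 22.6, 58.2 and 32.3 CPM in libraries 4 to 6, and at 15.7, 47.1 and 27.5 CPM in libraries 7 to 9, the order of Zfp36 in every run. Nearest to Fos were Slc6a6, Rb1 and Spaca6 (0.16 to 0.17), and to Fosb Spaca6 (0.25), Kcnq1ot1 (0.28) and Rundc3b (0.33). Nearest to Fosl1 were Odc1 (0.11), Aimp2 (0.13) and Dock11 (0.14), and to Egr2 Cep152, Il6st and Slfn8 (0.08 to 0.10). Among the 10 genes themselves Fosl2 and Junb were the closest pair (0.095). Fos and Fosb lay 0.33 apart, each the nearest member to the other, and the member nearest to Fosl1 was Jund, at 0.39. The measure is not scaled by range, so genes of narrow range tend to lie closer.

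Other genes of the pathway are described from lists of known partners, early genes, signalling genes and targets, to be read against the 28.0% of all tested genes that were variable. Of the AP-1 partner and inhibitor genes 3 of 7 tested were variable (median range 0.82 on the log2 scale), and 5 of the 7 had libraries 2, 5 and 8 all below the rest, as had 20.1% of all tested genes. Atf3, a stress-induced repressor and AP-1 partner, was at 2.82 CPM in library 8 and 19.5 CPM in library 7. Jdp2, an inhibitor of AP-1, was at 34.5 CPM in library 2 and 75.3 CPM in library 7. Both were thus high in library 7, where Fos, Fosb and Zfp36 were lowest.

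Of the other immediate early transcription factors 7 of 11 tested were variable (median range 1.18), and they did not share one order. Klf4, a cell fate regulator gene, was at 9.64 CPM in library 2 and 50.5 CPM in library 7, whereas Nr4a1 was lowest in library 7. Of the 11, 3 had libraries 2, 5 and 8 all above the rest (19.0% of all tested genes) and 4 all below (20.1%).

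Upstream of these genes, 0 of 12 tested MAP kinases and serum response factors were variable by the chi-square rule (median range 0.44). The widest were Elk3, a partner of serum response factor, at 62.4 to 102.4 CPM, and Srf itself at 38.2 to 58.7 CPM, both lowest in library 9. The feedback genes of ERK signalling had 3 of 9 variable (median 0.67). Among them Spry1, an inhibitor of receptor signalling, was at 19.3 CPM in library 8 and 79.9 CPM in library 1. Dusp4, the gene of a MAP kinase phosphatase, differed 3.96-fold. Dusp4 lay between 194 and 326 CPM in libraries 1, 3, 4, 6, 7 and 9 and between 82.4 and 97.1 in libraries 2, 5 and 8.

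Among the EGR corepressors and Zfp36 paralogs 1 of 4 was variable. Zfp36l1, which encodes another AU-binding decay factor, spanned 389 to 447 CPM in libraries 1-3, 281 to 340 in 4-6 and 147.0 to 262 in 7-9. These runs did not overlap, whereas those of Zfp36 did. Within libraries 4-6 and 7-9 its order was that of Zfp36, but within 1-3 library 2 was lowest rather than highest. Nab2, an EGR corepressor, was at 80.4 CPM in library 2 and 151.5 CPM in library 7. Of 8 known target mRNAs of tristetraprolin 3 were tested, and all 3 were variable (Il6, Cxcl1 and Ccl2). With library totals alone, or without library 3, 7 or 8, the count was 2. The 3 were not alike. Il6, a cytokine gene, spanned 17.7 CPM (library 8) to 36.3 CPM (library 3), a range of 1.03 on the log2 scale. Cxcl1, a neutrophil chemokine gene, spanned 184 to 552 CPM with libraries 2, 5 and 8 lowest. Ccl2, a monocyte chemokine gene, spanned 86.5 to 220 CPM with those libraries highest, the order of Zfp36 itself.

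Genes known as AP-1 targets had 9 of 10 variable, with a median range of 1.56 on the log2 scale against 0.69 for all tested genes. The protease gene Mmp3 stood at 169 to 188 CPM in libraries 1-3, 77.5 to 104.7 in 4-6 and 17.4 to 39.7 in 7-9, so that the 3 runs did not overlap, as for Zfp36l1, whereas for Jun only libraries 7-9 lay apart. Mmp13, the gene of a collagenase, spanned 1.38 CPM (library 7) to 12.3 CPM (library 2). The tested targets did not share one order. Mmp3 and Mmp13 were lowest in library 7, where Plau, Plaur, Hmga1 and Vegfa were highest. Hmga1, for example, was at 49.1 CPM in library 2 and 289 CPM in library 7. Timp1, Ccnd1, Spp1 and Cd44 had their highest and lowest levels in other libraries. Mmp9, whose counts did not pass the filter, spanned 0.141 CPM (library 3) to 9.53 CPM (library 8). Many of these genes also answer to other factors, and no link to AP-1 was tested.

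Heat shock genes, which like early genes respond to handling of cells, had 1 of 9 variable (median range 0.69). That gene, Hspb1, was at 102 to 112 CPM in libraries 2, 5 and 8, 60.8 to 66.9 in 1, 4 and 7 and 40.3 to 57.3 in 3, 6 and 9. Hspd1, a mitochondrial chaperone gene, spanned 349 CPM (library 2) to 683 CPM (library 9), with libraries 2, 5 and 8 all below the rest. Hspa1b, an inducible chaperone gene, was at 69.3 to 78.7 CPM in libraries 2, 5 and 8 and at 42.2 to 48.5 CPM in the other 6. The heat shock genes did not share one order. Of the 9, 3 had libraries 2, 5 and 8 all above the rest (19.0% of all tested genes) and 3 all below (20.1%). Fos and Fosb were higher in libraries 2, 5 and 8, and in 3, 6 and 9, than in 1, 4 and 7. The proliferation gene Mki67 was at 62.9 to 149 CPM in libraries 2, 5 and 8, where Zfp36 was highest, and at 4.98 to 28.1 in the others, and Ccnb2, a mitotic cyclin gene, at 7.22 to 26.0 against 0.48 to 6.35. The part of cell division and of handling in the levels of the early genes was not tested.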

How the data were processed

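The authors deposited 1 table of RSEM expected counts per gene, as whole numbers and not normalised, with 1 column for each of the 9 libraries. Tools listed in the submitters' processing notes, with no order, include STAR 2.7.8a and RSEM 1.3.3, and the build listed is GRCm38. Annotation release and strand setting are not stated there. Libraries have no group in the labels, so no coefficient could be tested.

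Counts were scaled with TMM factors (edgeR 4.0.16, R 4.3.3) computed on genes passing edgeR's filter (10 counts at the median library size in every library, 15 in total). Log2 CPM used a prior count of 2. A chi-square test of dispersion, adjusted by Benjamini-Hochberg over 12813 genes, was tried on simulated counts holding only counting noise and set changes. Such counts hold no technical spread between libraries, so they cannot show how often the test passes because of it. Named are the 10 genes, the 2 tested genes of widest range in each list and a list's only variable gene. Named too are the 3 nearest patterns of each variable member. Besides these, Egr3, Egr4, Mmp9, Hspa1b, Il6, Junos, Gm44710, other overlapping genes, the other tested AP-1 targets and the cell type markers were named. Members and lists were chosen with earlier results of these data known. Alternatives were other scalings, filters, prior counts, thresholds and each library left out. Lengths and coordinates are from GENCODE M21. All pairs of libraries differed beyond counting noise (at least 3925 genes).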

Additional observations from a re-analysis of the deposited data

How the results depend on the processing

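The count of variable members was 5 with RLE size factors, with library totals alone, without a filter, with genes kept at a mean over 1 CPM and with a prior count of 0.5, and lay between 2 (without library 7) and 5 when each library was left out. With a threshold of 1.5-fold it was 9, against 56.7% of all genes. Both changes of filter kept the scaling, so the ranges of the members could not move with them. Without library 7 Fos, Fosl1 and Egr2 fell under 2-fold, and without library 2 Fosl1 did. The count of variable genes in the whole table was 6374 without a filter, where more genes were tested, and 3268 to 3560 with a library left out. Scaled by totals alone, 2 members had libraries 1-3 all above the rest, 1 had libraries 7-9 all below and 5 had the second number of every run highest. By totals alone and with RLE size factors, 4 members had the first number of every run lowest. Fos and Fosb with libraries 1, 4 and 7 lowest, and Zfp36 with 2, 5 and 8 highest, were counted alike (2 and 1 members) under the other scalings. Leaving out the filter could not change these orders, because the scaling stayed the same. Lengths taken from the longest coding transcript, chosen after seeing the data, moved the median levels of Fosb, Fosl2 and Junb by more than 1 SD over the libraries, and those of Fosl2 and Junb above their highest library. No paired analysis was possible because no library has a group in the labels. Counting error limits Egr2 most.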

Other observations

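Ordered by level, the libraries showed their widest step for Fos between libraries 1, 4 and 7 and the other 6, a gap of 0.40 on the log2 scale that took 31.7% of the range. For Jun the widest step (0.24, 38.7% of the range) set libraries 7, 8 and 9 apart. For Egr1 (0.21, 40.4% of the range) and Egr2 (0.41, 36.4%) it lay between library 7 and the rest, and for Fosl1 (0.39, 32.5%) between library 2 and the rest. For Zfp36 the widest step, 0.50 above library 7, took 24.3% of the range.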
